A study of Mus musculus with 4 samples.

Results

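The 9 genes described here, *Ptgds*, *Slc6a13*, *Slc22a6*, *Slc47a1*, *Aldh1a2*, *Crabp2*, *Cldn11*, *Gjb2* and *Gjb6*, are known from the meninges, the membranes that lie between the skull and the brain. They were taken by name from 23946 gene symbols, and all 9 were measured in each of 4 RNA-seq libraries from mouse calvarial bone. *Ptgds* was picked also on its large differences between these libraries, so its differences are given as a description.

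The meninges consist of the dura mater under the bone, the arachnoid with its barrier cells, and the pia mater on the brain. Arachnoid barrier cells are joined by tight junctions and carry transporters that move organic ions and amino acids out of the cerebrospinal fluid, while meningeal fibroblasts make retinoic acid and secrete prostaglandin D synthase into that fluid. Several of these genes are also active in glia, in myelin or in epithelia, as stated beside each of them.

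Bulk RNA-seq was done on frontal and parietal bones of C57BL/6J mice at postnatal day 21, either wild-type or heterozygous for a loss of *Twist1* (Twist1+/-), a transcription factor of calvarial development that binds the DNA letters CANNTG. The comparison asks how loss of 1 *Twist1* allele changes bone of neural crest origin (frontal) and of mesodermal origin (parietal). There was 1 library for each of wild-type frontal, wild-type parietal, Twist1+/- frontal and Twist1+/- parietal bone, made from 12 mice per strain, and how many mice went into each library is not given in the sources used here. The methods speak of replicates, but not of how they were joined in the FPKM values. Each value may therefore stand for 1 library or for a pool, and is called a library here. The study describes the parietal bones used for RNA-seq as holding pericranium, bone plate and dura mater, so dural tissue was part of the sample. The mutation is carried in every cell, and no agent was given.

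With 1 library per condition there is no replicate error, and no difference below was tested. Values are FPKM, which scales the fragments of a gene to transcript length and library size, and a gene is called where its 2 values are more than 3-fold apart and the larger is at least 1 FPKM. Over all genes that reached 1 FPKM this rule called 13.3% between the wild-type bones, 3.89% between the frontal bones, 8.19% between the parietal bones and 4.09% between the Twist1+/- bones. In bulk bone, fewer cells of a type and less RNA per cell cannot be told apart.

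Bone genes were high in all 4 libraries, with *Bglap*, the osteoblast gene for osteocalcin, at 6811 FPKM in wild-type frontal bone and 5220.3 in its parietal counterpart, 5371 in the frontal library of Twist1+/- and 7982 in the parietal library labelled Twist1+/-. Frontal bone had 59.0 FPKM of *Twist1* in wild-type and 30.4 in Twist1+/-, but parietal bone had 52.5 in wild-type and 50.7 in the parietal library labelled Twist1+/-. The last library therefore did not show the lower *Twist1* level that its label implies, and it is named by its label throughout. Genes above 0 numbered 19452 in the Twist1+/- frontal and 18677 in the wild-type frontal library. By a rough estimate from the steps between low FPKM values, the wild-type frontal library was nonetheless the most deeply sequenced. Against it, 1 read was worth about 1.30 times as much FPKM in Twist1+/- frontal, 1.53 times in the parietal library labelled Twist1+/- and 1.73 times in wild-type parietal bone. Compared directly, the parietal library labelled Twist1+/- stood at 0.986 times wild-type parietal bone. The values against wild-type frontal bone put these 2 further apart, so the estimates are rough. The number of reads behind each library cannot be read from its FPKM values, and the sources give it as an average over replicates. *Col1a1* and *Col1a2*, the genes of type I collagen, are listed at 0 in every library but wild-type parietal bone, so a value of 0 in these tables can be a failed estimate. None of the 9 genes is listed at 0.

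*Ptgds* encodes lipocalin-type prostaglandin D synthase, which turns prostaglandin H2 into prostaglandin D2 and is also a carrier of small lipophilic molecules in cerebrospinal fluid. It is made by meningeal cells, choroid plexus and oligodendrocytes. On mm9 the gene lies at chr2:25322229-25325566 on the minus strand, and its longest coding transcript has 7 exons. It was the most abundant of the 9 genes in every library, at 1975 FPKM in frontal and 52.8 in parietal bone of wild-type mice, and 327 in the frontal and 428 in the labelled parietal library of Twist1+/- mice. Wild-type frontal bone was the highest and wild-type parietal bone the lowest, with both Twist1+/- libraries between them.

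In wild-type frontal bone *Ptgds* ranked 10 among all genes by FPKM, whereas it ranked 151 in Twist1+/- frontal, 161 in the parietal library labelled Twist1+/- and 1565 in wild-type parietal bone. The wild-type bones differed 37.4-fold (log2 ratio of parietal to frontal -5.22). The genotype differences went in opposite directions, 6.04-fold lower in Twist1+/- than in wild-type frontal bone and 8.11-fold higher in the parietal library labelled Twist1+/- than in that of wild-type. The 2 Twist1+/- libraries differed by 1.31-fold. *Ptgds* made up 95.3% of the summed FPKM of the 9 genes in wild-type frontal bone and 44.5% in wild-type parietal bone, so any sum over the 9 genes mostly follows *Ptgds*. Without it the other 8 genes summed to 96.9 FPKM in the wild-type frontal library, 65.9 in the wild-type parietal one, 66.8 in the Twist1+/- frontal one and 49.7 in the parietal library labelled Twist1+/-.

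**Figure D1:**
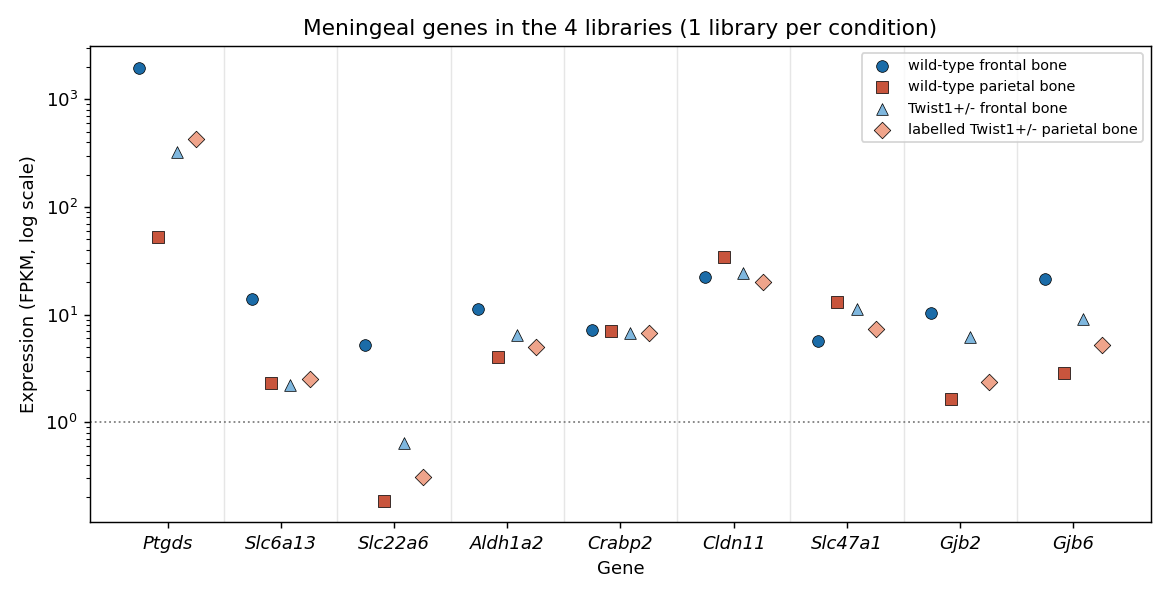
Expression of the 9 genes in the 4 libraries, in FPKM on a log axis, with 1 point per gene and library and no error bars because each condition has 1 library. *Ptgds* spans 52.8 to 1975 FPKM, while *Crabp2* stays between 6.76 and 7.24 FPKM.

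Of the 16 genes listed for prostaglandin metabolism around *Ptgds*, 15 were measured and 14 reached 1 FPKM. Between the wild-type bones none of the 14 was called higher in parietal bone and 2 were called lower, a share near the 13.3% of all genes. These were *Ptgs2*, the inducible cyclooxygenase, at 1.28 FPKM in frontal and 0.264 in parietal bone, and *Slco2a1*, the prostaglandin uptake transporter, at 7.73 and 1.91 FPKM. None of the 14 was called between the frontal bones, against 3.89% of all genes. Between the parietal bones 1 of 13 was called, a share near the 8.19% of all genes. It was *Ptgdr*, a prostaglandin D2 receptor, at 0.356 FPKM in the library labelled Twist1+/- and 1.17 in wild-type. *Hpgds*, the haematopoietic prostaglandin D synthase and the other enzyme for this step, ran from 1.54 FPKM in the parietal library labelled Twist1+/- to 4.32 in wild-type parietal bone, the library where *Ptgds* was lowest. *Ptgis*, prostacyclin synthase, and *Hpgd*, which inactivates prostaglandins, had the highest mean levels of the list. *Ptgis* lay between 117 and 193 FPKM and *Hpgd* between 54.7 and 134 FPKM, the latter with its lowest value in wild-type frontal bone.

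Among the transporters, *Slc6a13* encodes GAT2, a carrier of GABA and taurine known from the leptomeninges, liver and kidney. Its levels were 13.9 FPKM in wild-type frontal bone and 2.30 in its parietal counterpart, 2.21 in the frontal library of Twist1+/- and 2.52 in the parietal library labelled Twist1+/-. Wild-type frontal bone stood alone, and the 3 other libraries lay within 1.14-fold of each other. *Slc6a13* was 6.28-fold lower in Twist1+/- than in wild-type frontal bone (log2 ratio -2.65), and 6.04-fold lower in wild-type parietal than in wild-type frontal bone (log2 ratio -2.59).

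*Slc22a6* encodes OAT1, an organic anion exchanger of kidney and of the arachnoid barrier. It had 5.20 FPKM in frontal and 0.187 in parietal bone of wild-type mice, and 0.636 in the frontal and 0.307 in the labelled parietal library of Twist1+/- mice. It therefore reached 1 FPKM in a single library. It was 8.17-fold lower in Twist1+/- frontal and 27.9-fold lower in wild-type parietal than in wild-type frontal bone. These folds rest on values below 1 FPKM, and with 1 FPKM added to each value the log2 ratios shrank from -3.03 to -1.92 and from -4.80 to -2.38. In the 2 comparisons of the parietal library labelled Twist1+/- *Slc22a6* was under 1 FPKM on both sides and was not called.

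*Slc47a1*, which encodes the proton-coupled exporter MATE1 of organic cations, ran the other way. It was at 5.72 FPKM in the wild-type frontal library, 13.2 in the wild-type parietal one, 11.2 in the Twist1+/- frontal one and 7.30 in the parietal library labelled Twist1+/-. Wild-type frontal bone, the highest library for *Slc6a13* and *Slc22a6*, was the lowest for *Slc47a1*. The largest difference was 2.31-fold, so *Slc47a1* was not called in any of the 4 comparisons.

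Transporters outside the 9 genes were read from a list of 16 solute carriers and efflux pumps of the arachnoid barrier, the blood-brain barrier or the kidney. Between the wild-type bones 8 of the 14 that reached 1 FPKM were called lower in parietal bone and 0 higher. Of all genes 9.20% were called lower and 4.07% higher. They were *Slc22a2*, *Slc22a8*, *Slc6a12*, *Slc6a20a*, *Slc13a3*, *Slco1c1*, *Slco1a4* and *Abcb1a*, of which *Slco1c1*, *Slco1a4* and *Abcb1a* are known from the endothelium of brain vessels. The median log2 ratio of the 14 was -2.00. Between the frontal bones *Slc22a8*, *Slc6a20a* and *Slc13a3* were called lower in Twist1+/-, and between the parietal bones *Slc22a2* and *Slco1a4* were called higher in the library labelled Twist1+/-. The shares of all genes were 0.725% lower between the frontal and 5.25% higher between the parietal bones. *Slc22a8*, which encodes the organic anion transporter OAT3, had the same order of libraries as *Slc22a6*, with 9.02 FPKM in wild-type frontal bone and 0.477 in its parietal counterpart, 1.46 in the frontal library of Twist1+/- and 1.06 in the parietal library labelled Twist1+/-. *Slc13a3*, a carrier of dicarboxylates, also stood out in a single library, at 13.0 FPKM in wild-type frontal bone and between 3.06 and 3.32 in the others. *Abcg2*, an efflux pump, and *Slc16a1*, a lactate carrier, had the highest mean levels of the list and were not called in any comparison. *Abcg2* was at 33.3 to 52.1 FPKM and *Slc16a1* at 31.7 to 66.4 FPKM.

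The retinoic acid genes varied less. *Aldh1a2* encodes the retinaldehyde dehydrogenase that makes retinoic acid in meningeal fibroblasts, and on mm9 it lies at chr9:71063596-71144050 on the plus strand. It was at 11.2 FPKM in frontal and 4.07 in parietal bone of wild-type mice, and 6.44 in the frontal and 5.05 in the labelled parietal library of Twist1+/- mice. Wild-type frontal bone was again highest, but the largest difference was 2.74-fold, below the threshold. *Crabp2*, which carries retinoic acid to its nuclear receptors, was at 7.24 FPKM in the wild-type frontal library, 7.06 in the wild-type parietal one, 6.80 in the Twist1+/- frontal one and 6.76 in the parietal library labelled Twist1+/-. The highest and lowest *Crabp2* values differed by 1.07-fold, and its order over the libraries turned with the scaling used. On mm9 *Crabp2* lies at chr3:87752588-87757298 on the plus strand.

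Of 17 further genes of the retinoic acid pathway, 15 reached 1 FPKM. Between the wild-type bones 3 were called higher in parietal bone and 1 lower, where 4.07% and 9.20% of all genes were. The higher genes included *Aldh1a3*, another retinaldehyde dehydrogenase, and *Rarb*, a retinoic acid receptor, and the lower gene was *Aldh1a1*, also a dehydrogenase of this family. *Aldh1a1* was at 43.1 FPKM in frontal and 11.8 in parietal bone of wild-type mice, and 30.2 in the frontal and 25.5 in the labelled parietal library of Twist1+/- mice. The dehydrogenase genes thus did not share 1 direction. *Crabp1*, a relative of *Crabp2*, was called higher in both Twist1+/- libraries than in wild-type bone of the same position, at 18.1 against 5.22 FPKM in frontal and 7.71 against 2.35 in parietal bone, while *Crabp2* was not. *Rarb* was called lower in the library labelled Twist1+/- than in wild-type parietal bone, at 1.23 against 4.69 FPKM.

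Among the junction genes, *Gjb2* and *Gjb6* encode connexin 26 and connexin 30, gap junction proteins of the leptomeninges, the inner ear and stratified epithelium, and *Gjb6* is also an astrocyte gene. *Gjb2* was at 10.3 FPKM in wild-type frontal bone and 1.63 in its parietal counterpart, 6.20 in the frontal library of Twist1+/- and 2.39 in the parietal library labelled Twist1+/-. *Gjb6* was at 21.2, 2.84, 9.11 and 5.20 FPKM in the same order of libraries. Both genes were highest in wild-type frontal and lowest in wild-type parietal bone, and for both the 2 frontal libraries lay above the 2 parietal ones. *Gjb2* differed 6.33-fold and *Gjb6* 7.47-fold between the wild-type bones, the only comparison in which they were called. The ratio of *Gjb6* to *Gjb2* was 2.06 in frontal and 1.74 in parietal bone of wild-type mice, and 1.47 in the frontal and 2.17 in the labelled parietal library of Twist1+/- mice.

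*Cldn11* encodes claudin 11, a tight junction protein of arachnoid barrier cells and of the myelin of oligodendrocytes, at chr3:31048868-31063246 on the plus strand of mm9. It was at 22.2 FPKM in the wild-type frontal library, 34.6 in the wild-type parietal one, 24.2 in the Twist1+/- frontal one and 20.2 in the parietal library labelled Twist1+/-. It was highest in the library where *Ptgds*, *Gjb2* and *Gjb6* were lowest, and the largest difference was 1.71-fold. Of 23 other connexin and tight junction genes, 19 reached 1 FPKM. Between the wild-type bones 2 of 16 were called higher and 4 lower in parietal bone, where 4.07% and 9.20% of all genes were. In Twist1+/- frontal bone 3 of 18 were called higher, against 3.17% of all genes. In the parietal library labelled Twist1+/- 5 of 17 were called higher, against 5.25%, and none was called lower in either. *Cldn3* and *Cldn7*, claudins of simple epithelia, had the widest ranges of the list. *Cldn3* was at 2.37 FPKM in wild-type frontal bone and 0.312 in its parietal counterpart, 10.4 in the frontal library of Twist1+/- and 7.52 in the parietal library labelled Twist1+/-. Its highest values were thus in the Twist1+/- libraries, unlike those of the 9 genes.

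Over the 9 genes, 7 were highest in wild-type frontal bone, against 27.0% of the 14760 genes that reached 1 FPKM in any library. *Ptgds*, picked on its differences between these libraries, is among the 7. The other genes were chosen with earlier results of these data known. The shares of all genes here and below are therefore a description and no test. The exceptions were *Cldn11* and *Slc47a1*, highest in wild-type parietal bone. The count stayed at 7 without the parietal library labelled Twist1+/-. Wild-type parietal bone was the lowest library for 5 of the 9 (*Ptgds*, *Slc22a6*, *Aldh1a2*, *Gjb2* and *Gjb6*), against 35.1% of all genes.

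The wild-type bones differed most. Of the 9 genes, 5 were called and all 5 were lower in parietal bone, namely *Ptgds*, *Slc6a13*, *Slc22a6*, *Gjb2* and *Gjb6*. Over all 14214 genes that reached 1 FPKM, 13.3% were called in either direction and 9.20% were lower. The median log2 ratio of parietal to frontal bone was -2.59 over the 9 genes, -2.03 without *Ptgds* and -0.01 over all genes. *Ptgds*, 1 of the 5 called, was picked on its differences.

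Between the frontal bones, *Ptgds*, *Slc6a13* and *Slc22a6* were called lower in Twist1+/-, 3 of the 9 genes, and none was called higher. Over all 14341 genes 3.89% were called, and calls in the lower direction were few, at 0.725%. Most calls between the frontal bones were thus higher in Twist1+/-, 454 genes against 104 lower. The median log2 ratio was -0.80 over the 9 genes, -0.76 without *Ptgds* and -0.04 over all genes. *Ptgds*, 1 of the 3 called, was picked on its differences. *Slc47a1*, at a log2 ratio of 0.96, was the only one of the 9 above 0.13.

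Between the parietal bones, *Ptgds* was called higher in the library labelled Twist1+/-, and none of the 7 others that reached 1 FPKM was called. Over all 13914 genes 8.19% were called, 5.25% higher. The median log2 ratio was 0.31 over the 9 genes, 0.22 without *Ptgds* and -0.06 over all genes. The middle part of all genes, from the 25th to the 75th percentile, lay between -0.55 and 0.48. In this comparison the log2 ratio followed GC content across 12554 genes (Spearman's rho 0.546, a description across genes of 1 library pair), from a median of -0.62 in the lowest of 20 GC groups to 0.70 in the highest. The *Ptgds* transcript has 56.2% GC, above the median of 49.6%, and its log2 ratio of 3.02 became 2.63 when the median of genes of like GC content was subtracted.

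Between the Twist1+/- bones 0 of the 8 genes that reached 1 FPKM were called, against 4.09% of all 14305 genes. The median log2 ratio was -0.35 over the 9 genes and -0.03 over all genes. The largest difference among the 8 was that of *Gjb2*, 2.59-fold lower in the parietal library. Here too the log2 ratio followed GC content (Spearman's rho 0.416 across 12979 genes, again a description). That of *Ptgds* went from 0.39 to 0.19 when the median of genes of like GC content was subtracted. The 4 comparisons share libraries in pairs, so they are not independent of each other, and the wild-type frontal library enters both comparisons in which more than 1 of the 9 genes was called.

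**Figure D2:**
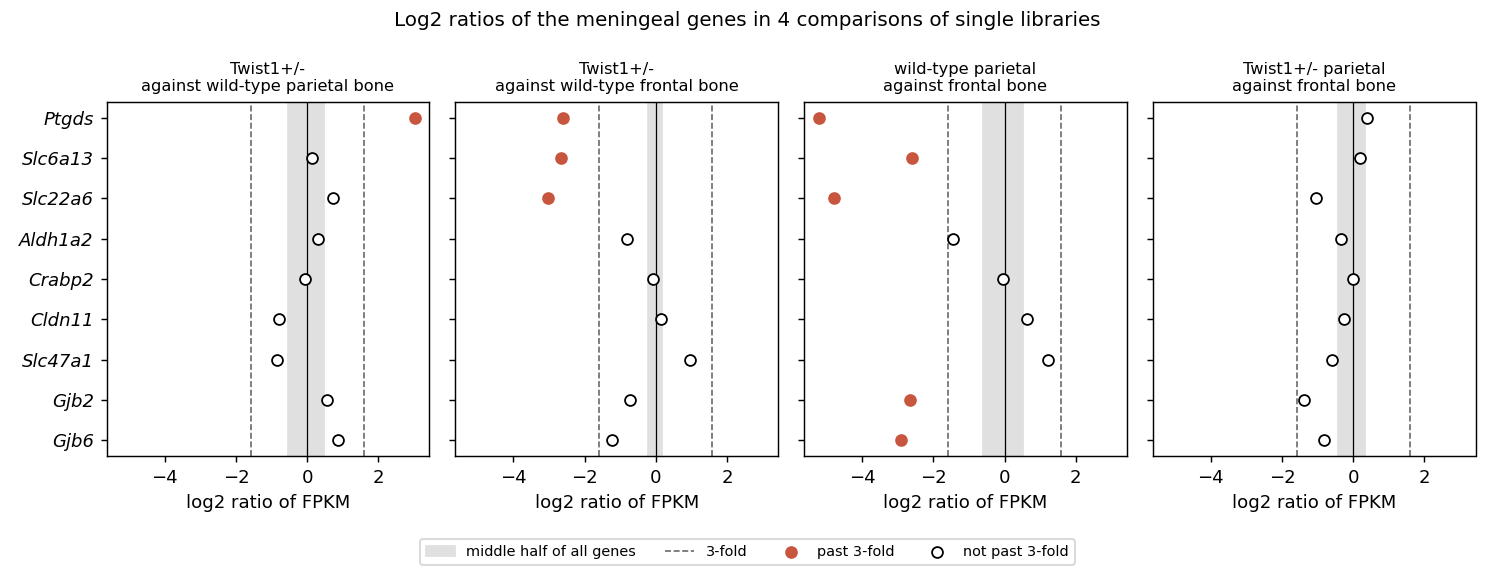
Log2 ratio of FPKM for each of the 9 genes in the 4 comparisons, with dashed lines at 3-fold in either direction, filled points for genes past it, and a grey band from the 25th to the 75th percentile of all genes. In wild-type parietal against frontal bone 5 genes lie below the lower line, and between the Twist1+/- bones *Ptgds* is at 0.39.

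Several of the 9 genes lie beside a paralogue, and the pairs were compared in the 4 libraries. Positions are on mm9. *Slc22a6* (chr19:8692486-8702789, plus strand) begins 6162 bases after *Slc22a8*, and the ratio of *Slc22a8* to *Slc22a6* was 1.74 in frontal and 2.56 in parietal bone of wild-type mice, and 2.29 in the frontal and 3.46 in the labelled parietal library of Twist1+/- mice. Both genes had the same order of libraries. *Slc6a13* (chr6:121250245-121287751, plus strand) ends 5343 bases before *Slc6a12*, which encodes the betaine and GABA transporter BGT1. *Slc6a12* was at 2.09 FPKM in the wild-type frontal library, 0.179 in the wild-type parietal one, 1.09 in the Twist1+/- frontal one and 0.691 in the parietal library labelled Twist1+/-. Both were highest in wild-type frontal bone, but the log2 ratio of Twist1+/- to wild-type frontal bone was -0.94 for *Slc6a12* and -2.65 for *Slc6a13*.

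*Gjb2* (chr14:57717437-57723539) and *Gjb6* (chr14:57742140-57752448) lie 18601 bases apart on the minus strand and had the same order of libraries, while *Gja3*, the next connexin gene, stayed below 1 FPKM at 0.145 to 0.412. *Slc47a1* (chr11:61156902-61191847, minus strand) lies 540 bases from *Slc47a2*, which stayed at 0.0768 to 0.195 FPKM. Of the 12 genes within 100000 bases of *Ptgds* on mm9, *Fut7*, which encodes a fucosyltransferase of leukocytes, was also called lower in wild-type parietal than in wild-type frontal bone (log2 ratio -2.45) and higher between the parietal bones (2.65), but it did not differ likewise between the frontal bones (0.23). *Abca2*, a transporter gene, was lowest in wild-type parietal bone at 2.88 FPKM. It hardly differed between the frontal bones, at 7.62 FPKM in wild-type and 7.50 in Twist1+/- (log2 ratio -0.02). Others varied less. *Edf1*, at 87801 bases, ran from 93.4 to 131 FPKM and *Fbxw5*, at 30704 bases, from 16.5 to 21.1 FPKM. *C8g*, a lipocalin gene at 28605 bases, was highest in wild-type parietal bone at 3.06 FPKM and lay between 1.61 and 1.70 in the others. No window of 75 bases, the read length, in any of the 9 transcripts occurred in a coding transcript of another gene, so by this measure reads of the paralogues could be told apart.

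**Figure D3:**
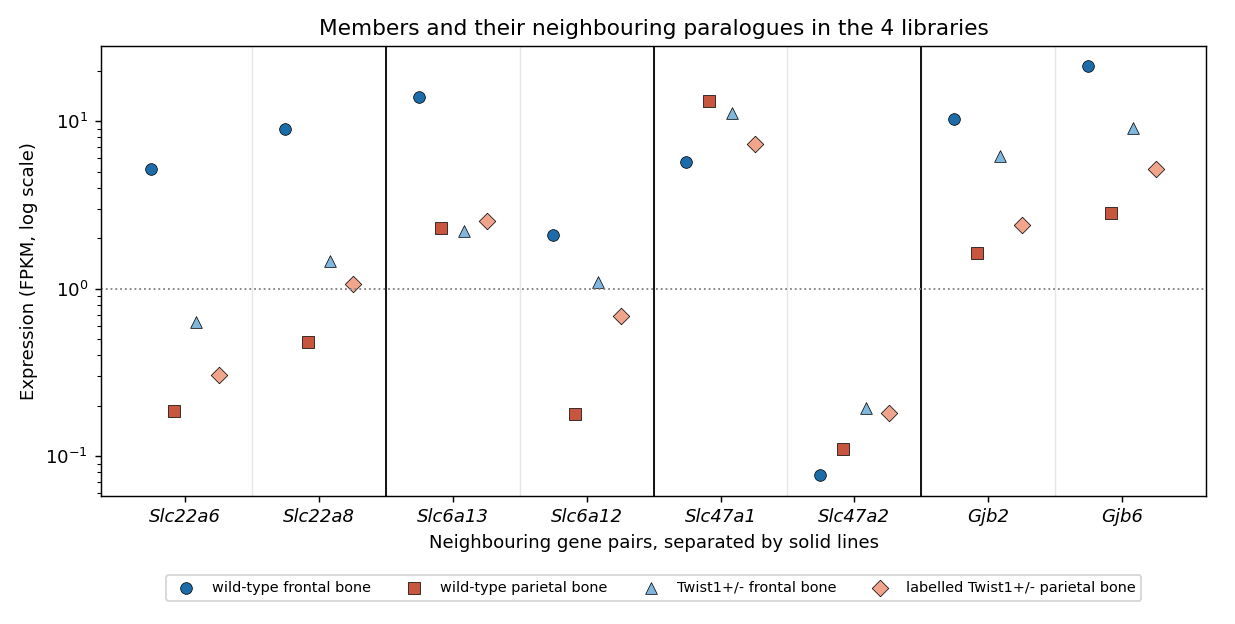
Expression of 4 pairs of neighbouring paralogues in the 4 libraries, in FPKM on a log axis with the 1 FPKM threshold dotted. *Slc22a6* with *Slc22a8* and *Gjb2* with *Gjb6* keep the same order of libraries, whereas *Slc47a2* stays at or below 0.195 FPKM beside *Slc47a1*.

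The promoters of *Ptgds*, *Slc22a6*, *Gjb2* and *Gjb6*, all lowest in wild-type parietal bone, are shown because TWIST1 binds CANNTG letters. *Aldh1a2* was also lowest there, and the matches in its promoter are counted below without its sequence. The sequences are RefSeq's on GRCm38.p6, a later build than mm9, and run from 250 bases before to 50 bases after the start of transcription, read along the strand of the gene, with each CANNTG in capitals. They are chr2:25469700-25469999 (minus strand) for *Ptgds*, chr19:8617746-8618045 (plus) for *Slc22a6*, chr14:57104653-57104952 (minus) for *Gjb2* and chr14:57133562-57133861 (minus) for *Gjb6*.
*Ptgds*: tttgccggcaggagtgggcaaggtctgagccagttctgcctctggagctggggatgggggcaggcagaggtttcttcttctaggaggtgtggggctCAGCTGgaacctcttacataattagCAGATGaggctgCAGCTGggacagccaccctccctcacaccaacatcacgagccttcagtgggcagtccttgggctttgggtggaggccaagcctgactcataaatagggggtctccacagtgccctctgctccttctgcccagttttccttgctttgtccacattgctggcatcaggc
*Slc22a6*: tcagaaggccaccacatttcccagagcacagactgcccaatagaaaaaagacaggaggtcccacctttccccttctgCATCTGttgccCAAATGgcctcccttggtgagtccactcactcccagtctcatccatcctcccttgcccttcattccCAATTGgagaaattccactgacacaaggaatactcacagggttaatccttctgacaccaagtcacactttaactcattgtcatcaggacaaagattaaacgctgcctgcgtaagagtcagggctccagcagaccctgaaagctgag
*Gjb2*: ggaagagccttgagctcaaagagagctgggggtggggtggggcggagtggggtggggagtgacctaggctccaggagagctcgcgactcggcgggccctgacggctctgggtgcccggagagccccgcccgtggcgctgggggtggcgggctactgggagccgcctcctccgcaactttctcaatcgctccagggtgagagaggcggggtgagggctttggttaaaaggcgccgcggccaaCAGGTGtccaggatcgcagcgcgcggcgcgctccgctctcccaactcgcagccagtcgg
*Gjb6*: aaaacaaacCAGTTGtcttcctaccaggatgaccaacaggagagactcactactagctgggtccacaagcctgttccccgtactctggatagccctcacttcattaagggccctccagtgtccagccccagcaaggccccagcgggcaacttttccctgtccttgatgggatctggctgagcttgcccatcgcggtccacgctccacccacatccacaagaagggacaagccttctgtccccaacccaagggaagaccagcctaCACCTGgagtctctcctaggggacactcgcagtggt

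*Ptgds* held 3 matches, CAGCTG at -154, CAGATG at -129 and CAGCTG at -117 relative to the start. *Slc22a6* also held 3, CATCTG at -173, CAAATG at -162 and CAATTG at -96. *Gjb2* held 1, CAGGTG at -9, and *Gjb6* held 2, CAGTTG at -241 and CACCTG at 15. CANNTG reads the same on both strands and is common, being present in 72.3% of 32851 promoters of this length, with a mean of 1.39 matches. CAGCTG, a case of CANNTG, was in 16.3% of them. Promoters were matched for 7 of the 9 genes (not *Crabp2* and *Slc47a1*), and 6 of the 7 held a CANNTG in at least 1 window, *Slc6a13* having 3 windows with 2, 1 and 0 matches, *Aldh1a2* 2 matches and *Cldn11* none. Searched on both strands, GGGCGG was found in 3 of the 7 (35.7% of all promoters), AGGTCA, a nuclear receptor motif, in 2 (16.3%) and TATAAA in 0 (13.6%). These are matches of letters and not measured binding.

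The label of the 9 genes was checked on 22 other genes of meningeal fibroblasts. Of these, 20 reached 1 FPKM and 7 of the 20 were highest in wild-type frontal bone, against 7 of the 9 and 27.0% of all genes. *Foxc1*, a transcription factor of meninges and skull, was at 14.0 FPKM in wild-type frontal bone and 18.5 in its parietal counterpart, 17.5 in the frontal library of Twist1+/- and 20.4 in the parietal library labelled Twist1+/-. *Zic1*, another meningeal transcription factor, was at 10.3, 17.7, 7.59 and 17.6 FPKM in that order, higher in parietal than in frontal bone in both genotypes as labelled. *Tbx18*, known from meningeal and mural cells, was between 1.20 and 1.77 FPKM. *Foxc1*, *Zic1* and *Tbx18* thus did not have the profile of *Ptgds*. *Wnt6*, at 3.62, 0.582, 1.43 and 1.65 FPKM in that order, and *Bmp7*, at 8.69, 3.78, 6.86 and 7.11, ranked the libraries as *Ptgds* did. Of the 20 genes, 9 were lowest in wild-type parietal bone, against 35.1% of all genes. *Klf5*, of the same list, was at 3.65, 0.975, 3.66 and 3.59 FPKM in the same order of libraries. It was lowest in wild-type parietal bone, as *Ptgds* was, but did not differ between the frontal bones (log2 ratio 0.00).

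Between the wild-type bones 5 of the 20 genes (*Wnt6*, *Dpp4*, *Klf5*, *Vtn* and *Bmp6*) were called lower in parietal bone and 2 (*Igf2* and *Il33*) higher, with a median log2 ratio of -0.19. Of all genes 9.20% were called lower and 4.07% higher, with a median of -0.01. Between the frontal bones 0 of the 20 were called, against 3.89% of all genes. Between the parietal bones 2 were called higher (*Klf5* and *Vtn*) and 1 lower (*Igf2*) in the library labelled Twist1+/-, where 5.25% and 2.94% of all genes were. *Igf2*, a growth factor of meninges and of young bone, was at 231 FPKM in frontal and 1127 in parietal bone of wild-type mice, and 215 in the frontal and 364 in the labelled parietal library of Twist1+/- mice. *Cxcl12*, a chemokine of meninges and marrow stroma, was at 311, 128, 421 and 371 FPKM and was not called between the wild-type bones. The 9 genes are therefore called by their names here, since the wider list of meningeal genes did not move as 1 group.

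Genes of brain cells moved with some of the 9. Of 10 astrocyte genes, all reached 1 FPKM, 9 were highest in wild-type frontal bone (*Gja1* was the exception) and 7 were called lower in wild-type parietal than in wild-type frontal bone. The shares of all genes were 27.0% and 9.20%. *Gfap*, the astrocyte filament gene, was at 59.1 FPKM in the wild-type frontal library, 7.13 in the wild-type parietal one, 14.2 in the Twist1+/- frontal one and 12.4 in the parietal library labelled Twist1+/-. Without *Gja1*, which bone cells also express, the astrocyte genes summed to 409 FPKM in wild-type frontal bone and 91.9 in its parietal counterpart, 161 in the frontal library of Twist1+/- and 125 in the parietal library labelled Twist1+/-. Between the frontal bones 2 of the 10, *Gfap* among them, were called lower in Twist1+/-, against 0.725% of all genes. Between the parietal bones 0 of the 10 were called, against 8.19% of all genes, whereas *Ptgds* was called higher there.

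Of 12 neuron genes, 6 were called lower in wild-type parietal than in wild-type frontal bone and 5 higher in the library labelled Twist1+/- than in wild-type parietal bone. The shares of all genes were 9.20% and 5.25%. Between the frontal bones 1 was called lower in Twist1+/-, *Slc17a7*, a vesicular glutamate transporter, where 0.725% of all genes were. The list summed to 427 FPKM in frontal and 149 in parietal bone of wild-type mice, and 334 in the frontal and 255 in the labelled parietal library of Twist1+/- mice. Myelin genes summed to 225, 63.3, 309.5 and 342 FPKM in that order. All 10 that reached 1 FPKM were lowest in wild-type parietal bone, against 35.1% of all genes. *Opalin*, an oligodendrocyte gene, was listed at 0 in wild-type parietal bone and no other gene of these 3 lists was at 0 in any library. *Snap25*, a synaptic gene, had 50.1 FPKM in the wild-type and 50.8 in the Twist1+/- frontal library, a pair of libraries between which *Ptgds* differed 6.04-fold. The part of these cells in the levels of the 9 genes was not tested.

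Choroid plexus epithelium is another site of *Ptgds*, and its 10 genes summed to 49.1, 42.9, 40.4 and 25.9 FPKM in the same order of libraries, with no gene at 0. *Folr1*, a folate receptor that marks it, was at 0.195 to 0.775 FPKM, while *Ttr*, the abundant transport protein of that epithelium, was between 9.23 and 23.7 FPKM. The highest *Ttr* value was that of wild-type parietal bone. *Kcnj13*, a potassium channel of that epithelium, was at 3.04, 0.251, 1.40 and 0.329 FPKM, and *Enpp2*, which encodes autotaxin, was highest in wild-type frontal bone at 20.7 FPKM. Of the 6 genes of the list that reached 1 FPKM, 1 was called higher and 1 lower in wild-type parietal than in wild-type frontal bone, where 4.07% and 9.20% of all genes were. In Twist1+/- frontal bone 2 of 6 were called higher (3.17% of all genes), and in the parietal library labelled Twist1+/- 2 of 5 (5.25%). The part of this epithelium in the levels of the 9 genes was not tested. Of 12 genes of stratified epithelium, where *Gjb2* and *Gjb6* are also active, 7 reached 1 FPKM. None of these was highest in wild-type frontal bone, against 27.0% of all genes. *Krt5*, a basal keratin, was at 0.236 FPKM there against 3.17 in the parietal library labelled Twist1+/-, and *Dsg1a* was listed at 0 in all 4.

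Nasal secretory genes and skeletal muscle genes also differed between libraries, in other orders than the 9 genes. The 11 nasal genes summed to 377 FPKM in wild-type frontal bone and 24.4 in its parietal counterpart, 1722 in the frontal library of Twist1+/- and 2514 in the parietal library labelled Twist1+/-. Highest in wild-type frontal bone were 0 of the 11, against 27.0% of all genes. The 12 muscle genes summed to 132, 3877, 1455 and 1940.2 FPKM, lowest in wild-type frontal bone. Endothelial genes summed to 182, 199.5, 195 and 250.5 FPKM. None of 9 was called in any comparison, where 3.89% to 13.3% of all genes were. Of 11 osteoblast and osteocyte genes 1 was called between the wild-type and 1 between the parietal bones, where 13.3% and 8.19% of all genes were. The part of nasal or muscle tissue in the levels of the 9 genes was not tested.

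**Figure D4:**
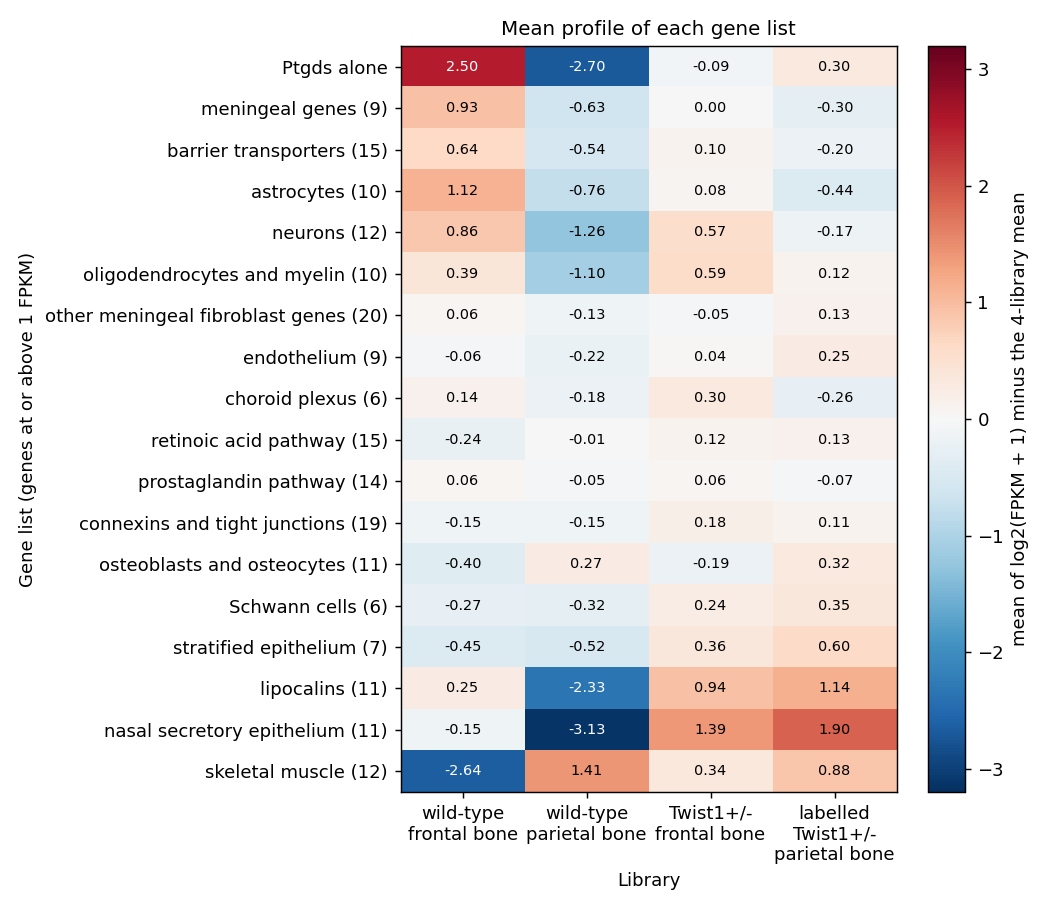
Mean level of each gene list in the 4 libraries, as log2(FPKM + 1) centred on the mean of each gene over the libraries, printed in each cell and shown by colour, red for above and blue for below that mean. The number of genes is beside each list. The 9 genes and the astrocyte list are highest in wild-type frontal bone, at 0.93 and 1.12, whereas the other meningeal genes lie between -0.13 and 0.13.

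The genes with the profile most like *Ptgds* were sought among 7873 genes that were above 0 in all 4 libraries and reached 10 FPKM. Profiles were log2(FPKM + 1) centred on their mean over 4 libraries, and likeness was the largest difference between 2 profiles in any library. The nearest were *Doc2g* (0.80), *Cck* (0.81), *Cplx1* (0.82), *Slc6a11* (0.83) and *Slc17a7* (0.83). *Cck*, *Cplx1* and *Slc17a7* are known from neurons and *Slc6a11*, a GABA transporter, from astrocytes. *Doc2g* was at 38.0 FPKM in frontal and 1.88 in parietal bone of wild-type mice, and 14.0 in the frontal and 11.4 in the labelled parietal library of Twist1+/- mice. None of the 5 nearest genes had its higher Twist1+/- value in the parietal library, as *Ptgds* had. Among the 9 genes the nearest to *Ptgds* was *Gjb6*, with a largest difference of 1.54 and rank 76, followed by *Gjb2* at 1.72, *Slc22a6* at 1.95 and *Slc6a13* at 2.14. *Cldn11* and *Slc47a1* were far from it, at 3.17 and 3.22.

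The mean profile of the other 8 genes had as its nearest genes *Fignl1* (0.04), *Fcna* (0.04), *Kif15* (0.07), *Tfdp2* (0.08) and *Mcm6* (0.08). Most of the 8 were not near this mean, which averages unlike profiles. *Aldh1a2* was closest at 0.15, while *Cldn11* was at 0.88, *Slc6a13* at 0.89, *Slc22a6* at 0.91 and *Slc47a1* at 1.29. *Mcm6*, a subunit of the replicative helicase, was at 61.8 FPKM in the wild-type frontal library, 31.9 in the wild-type parietal one, 40.3 in the Twist1+/- frontal one and 29.4 in the parietal library labelled Twist1+/-. With 4 libraries a close match over so few points is a description of these libraries only.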

How the data were processed

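Poly(A) RNA from frontal and parietal bones went into stranded libraries, read from a single end over 75 bases. The authors aligned the reads to mm9 with STAR 2.4.2a and computed FPKM with Cuffdiff (Cufflinks 2.2.1). The deposited values are FPKM, 1 per gene symbol and library, with no counts, so per-library depth cannot be read from them, and only the depth of libraries relative to each other was read, from the steps between values of 0.005 to 0.1 FPKM. The scaling option of Cuffdiff is not given in the sources used here. Stranded counting is not stated.

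Samples were grouped by their labels. With 1 library per condition, ratios of FPKM were formed without a test, and a gene was called at more than 3-fold with at least 1 FPKM in the higher library. All 9 genes were named. Of each of 16 other lists the 2 genes with the highest mean and the 2 with the widest range in log2(FPKM + 1) could be named, with those a statement rests on, *Twist1*, *Gapdh* and the 5 genes nearest in profile. *Col1a1* and *Col1a2*, the neighbours of *Ptgds* and *Gja3* were named after their values were seen. The members and lists were chosen with earlier results of these data known. The annotation of mm9 was GENCODE M1, which gave GC content for 80.8% of genes, and promoters came from RefSeq on GRCm38.p6. Python 3.11.15 with numpy 2.4.6, pandas 2.3.3 and matplotlib 3.10.9 were used, and the call rule and the scaling were tested on simulated data. Alternatives were a pseudocount of 1 or 0.1 FPKM, scaling to the median ratio or to *Gapdh*, no floor or a floor of 10 FPKM, a 2-fold threshold and lists without some genes. GC correction and the checks of the count highest in wild-type frontal bone were added after seeing the data. A few genes of the lists are not reported by name here.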

Additional observations from a re-analysis of the deposited data

Results flagged for a closer look

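The genotype difference had opposite signs in the parietal and the frontal bones for 8 of the 9 genes. The log2 ratio of Twist1+/- to wild-type in parietal bone minus that in frontal bone was 5.62 for *Ptgds*, 3.75 for *Slc22a6*, 2.78 for *Slc6a13*, 2.09 for *Gjb6*, 1.29 for *Gjb2* and 1.11 for *Aldh1a2*. It was -1.82 for *Slc47a1* and -0.91 for *Cldn11*, whose directions were the reverse of the others. Over 14542 genes above 0 in all 4 libraries, 46.0% had opposite signs. Signs count here whatever the size of the ratio, as for *Slc6a13*, at 0.13 in parietal bone, a sign that turned when the GC trend was subtracted.

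The difference between parietal and frontal bone had opposite signs in the 2 genotypes for 4 of the 9 genes, against 34.8% of all genes. Wild-type minus Twist1+/-, it was -5.62 for *Ptgds*, -2.78 for *Slc6a13*, 0.91 for *Cldn11* and 1.82 for *Slc47a1*. Both contrasts are made of the same 4 values, so the second repeats the first for these genes. The differences were not tested, since each condition has 1 library, and they rest on the parietal library labelled Twist1+/-, whose *Twist1* level was that of wild-type.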

How the results depend on the processing

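Of 180 recomputed log2 ratios of single genes, 175 kept their direction and their side of the 3-fold threshold. The 4 that turned were near 0, namely *Crabp2* between the parietal bones, at 0.01 with median scaling and 0.33 with *Gapdh* scaling, *Crabp2* between the Twist1+/- bones, at 0.04 with *Gapdh* scaling, and *Slc6a13* between the parietal bones, at -0.13 with the GC trend subtracted. *Aldh1a2* passed the threshold between the wild-type bones with *Gapdh* scaling, at -1.90. *Gapdh* scaling shifts all log2 ratios by 0.39 between the parietal bones and by -0.44 between the wild-type bones. Of 20 medians 1 moved, that between the frontal bones, to -1.70 without *Cldn11*, *Gjb2* and *Gjb6*. Of 20 counts of called genes 1 moved by over 1.5 times, to 1 at a 2-fold threshold between the Twist1+/- bones (*Gjb2*). The cause was not tested. The 3 recomputed counts of genes highest in wild-type frontal bone stayed at 7. GC subtraction and those 3 counts were chosen after seeing the data. No paired analysis was possible because the results come from no test, each condition having 1 library. A library was left out only for the count of genes highest in wild-type frontal bone, since every ratio needs both of its libraries. Low levels limit *Slc22a6*, whose values outside wild-type frontal bone are below 1 FPKM.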

Other observations

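Of 15 lipocalin genes besides *Ptgds*, 11 reached 1 FPKM, of which 2 were highest in wild-type frontal bone and 9 lowest in wild-type parietal bone. The shares of all genes were 27.0% and 35.1%. Between the wild-type bones 7 of the 11 were called lower in parietal bone, against 9.20% of all genes. Between the parietal bones 6 were called higher in the library labelled Twist1+/-, against 5.25%. Between the frontal bones 2 were called higher in Twist1+/-, against 3.17%, where *Ptgds* was called lower. Of the 11, 6 are also in the list of nasal secretory genes. *Apod*, apolipoprotein D, a lipocalin of meningeal and perivascular fibroblasts, was at 118 FPKM in wild-type frontal bone and 33.0 in its parietal counterpart, 46.2 in the frontal library of Twist1+/- and 49.0 in the parietal library labelled Twist1+/-, the order of libraries seen for *Ptgds*. *Lcn2*, a lipocalin of neutrophils and bone, was at 481, 213, 536 and 246 FPKM, higher in frontal bone of both genotypes. *Obp1a*, an odorant-binding lipocalin of nasal glands, was at 57.6, 0.852, 505 and 542 FPKM and was highest in the Twist1+/- libraries.

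Of 7 Schwann cell genes, 6 reached 1 FPKM. Of these 1 was highest in wild-type frontal bone, where 27.0% of all genes were. The list summed to 173 FPKM in the wild-type frontal library, 156 in its parietal counterpart, 287 in the frontal library of Twist1+/- and 369 in the parietal library labelled Twist1+/-.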
